A study of Mus musculus with 8 samples.

Results

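The 10 genes described are those of Polycomb repressive complex 2 (PRC2): *Ezh2* and *Ezh1*, *Suz12*, *Eed*, *Rbbp4*, *Rbbp7*, *Mtf2*, *Phf19*, *Jarid2* and *Aebp2*. They were taken by symbol from the table of raw counts per gene, where each of the 10 symbols named 1 of the 50600 genes listed. All 10 were among the 14497 genes past the filter on low counts, so no member was lost to it. The counts come from NF1-MET cells, a line from a malignant peripheral nerve sheath tumor (MPNST) of a mouse whose genotype combined *Nf1* fl/ko with the transgene *lox-stop-loxMET* tg/+ and with *Plp-creERT* tg/+, and from NF1-MET;sgP53 cells, made from that line by CRISPR-Cas9 knockout of *Trp53*. In that mouse the *Plp* promoter drives a tamoxifen-inducible Cre in Schwann lineage cells. Both lines therefore share the *Nf1* lesion and the *MET* transgene and differ in *Trp53*, which is wild type in NF1-MET. The paper also reports that *Cdkn2a* had been lost spontaneously from NF1-MET, the line that NF1-MET;sgP53 was made from. The study also made an empty vector control of NF1-MET, and the labels do not say whether the NF1-MET libraries came from it or from untransduced cells. The count columns of these libraries have names that start with SEV. That prefix may stand for the empty vector, but it is not explained. Each genotype was represented by 1 line, and whether NF1-MET;sgP53 is 1 clone is not stated in the sources used here. Each line was given either DMSO as vehicle or 100 nM capmatinib, an inhibitor of the MET receptor kinase, for 24 h in 10% FBS, with 2 replicates in each of the 4 groups. The replicates were treated in duplicate, and p-values therefore measure the spread between such duplicates.

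PRC2 places methyl groups on lysine 27 of histone H3 (H3K27), a mark of silenced developmental genes. EZH2 or EZH1 carries the methyltransferase activity, SUZ12 and EED hold the core together and are needed for that activity, and RBBP4 and RBBP7 bind histones. MTF2 and PHF19 mark a variant called PRC2.1, whereas JARID2 and AEBP2 mark PRC2.2. *EZH2* is known as a gene of dividing cells and a target of E2F transcription factors, *EZH1* is known for its expression in resting and differentiated cells, and loss of *SUZ12* or *EED* is a recurrent lesion of human MPNST.

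The start regions of the genes differed in the letters they hold. RefSeq windows of 300 bases, from 250 bases before to 50 after an annotated start, were available for all 10 members, in 14 windows, on build GRCm38.p6. The E2F motif was searched on both strands as TTTCCCGC, TTTCGCGC, TTTGCCGC or TTTGGCGC. It was found in 3 of the 14 windows, 1 each of *Ezh2*, *Suz12* and *Phf19*, and in 2.26% of 32851 windows of all genes. These windows are shown with that of *Ezh1*, the alternative catalytic subunit, which holds no such match. Capitals mark the E2F motif, which in *Phf19* is read on the opposite strand. The *Ezh2* window is chr6:47594981-47595280 (minus strand), that of *Suz12* is chr11:79992856-79993155 (plus strand), that of *Phf19* is chr2:34913927-34914226 (minus strand) and that of *Ezh1* is chr11:101226414-101226713 (minus strand).
Ezh2: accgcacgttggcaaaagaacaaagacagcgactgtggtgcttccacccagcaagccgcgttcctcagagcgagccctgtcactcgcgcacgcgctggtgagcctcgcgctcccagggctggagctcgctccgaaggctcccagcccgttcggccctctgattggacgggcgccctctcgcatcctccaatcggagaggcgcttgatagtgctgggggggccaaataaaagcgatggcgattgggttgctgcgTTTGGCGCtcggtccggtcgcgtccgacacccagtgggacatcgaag
Suz12: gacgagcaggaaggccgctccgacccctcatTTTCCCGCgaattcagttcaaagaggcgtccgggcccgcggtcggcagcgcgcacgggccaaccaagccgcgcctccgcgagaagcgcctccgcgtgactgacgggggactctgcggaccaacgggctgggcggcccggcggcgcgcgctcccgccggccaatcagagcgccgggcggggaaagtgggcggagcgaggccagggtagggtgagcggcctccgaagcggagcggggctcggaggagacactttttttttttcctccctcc
Phf19: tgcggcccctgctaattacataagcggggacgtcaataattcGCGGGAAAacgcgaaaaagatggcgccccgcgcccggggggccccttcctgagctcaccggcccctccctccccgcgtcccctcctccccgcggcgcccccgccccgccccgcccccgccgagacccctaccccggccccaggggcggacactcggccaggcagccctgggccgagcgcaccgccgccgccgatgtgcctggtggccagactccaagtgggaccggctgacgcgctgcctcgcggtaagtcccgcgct
Ezh1: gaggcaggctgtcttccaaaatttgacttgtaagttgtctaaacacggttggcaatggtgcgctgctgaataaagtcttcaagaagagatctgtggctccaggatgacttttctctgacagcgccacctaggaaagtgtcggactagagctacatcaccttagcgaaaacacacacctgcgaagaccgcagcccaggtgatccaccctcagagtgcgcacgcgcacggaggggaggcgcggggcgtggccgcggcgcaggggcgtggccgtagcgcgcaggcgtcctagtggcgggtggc
With the annotated start as base 0, the match spans bases 3 to 10 in *Ezh2*, -219 to -212 in *Suz12* and -208 to -201 in *Phf19*. The CCAAT box (CCAAT, both strands), a motif bound by NF-Y, was present in 9 of the 14 windows (8 members) and in 37.4% of all windows. The cell cycle homology region (TTTGAA or TTCGAA, both strands) was present in 4 of the 14, 1 each of *Suz12*, *Eed*, *Mtf2* and *Aebp2*, and in 19.2% of all windows, and in *Suz12* it lay beside the E2F motif without overlap. The NRF1 motif was present in 1 of the 14, that of *Ezh1*, and in 1.27% of all windows, and the p53 response element in 0 of the 14 and in 0.0731% of all windows. These matches describe the windows and were not tested for binding.

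Library totals were 30.1 to 42.8 M counts. *Gm42418*, a gene that overlaps ribosomal RNA sequence, held 1.11% to 13.1% of them and differed between replicates, most between the NF1-MET;sgP53 capmatinib libraries (10.0% and 1.11%). Without it, the number of members called was the same in every comparison. *Trp53*, the targeted gene, was at 182 to 193 CPM (counts per 1000000, after TMM scaling) in NF1-MET under vehicle and at 97.5 to 100.1 CPM in NF1-MET;sgP53 under vehicle, and at 126 to 128.5 and 68.0 to 68.8 CPM under capmatinib. Of 8 p53 target genes, 7 were lower in NF1-MET;sgP53 under vehicle and 6 under capmatinib, where 12.3% and 6.34% of all genes tested were lower. Among 10 markers of the Schwann lineage, *Sox10*, *Ngfr* and *Cdh19* were at or under 0.176 CPM in every library, whereas *Sox2*, *Egr2* and *Gap43* were well measured, so the labelled MPNST origin rests on a part of that list. The summed levels of immune markers (at most 2.12 CPM), endothelial markers (at most 0.578 CPM) and epithelial markers (at most 0.627 CPM) were near 0. The 5 fibroblast genes summed to 2831 to 3743 CPM under vehicle and 15520 to 15850 CPM under capmatinib. Most of that sum was *Col1a1* (log2 2.64 and 2.21), while *Thy1* rose (1.43 and 1.18), *Pdgfra* fell (-0.38 and -0.32) and *Lum* was at or near 0. Of the 5 genes, 2 were higher and 2 lower in NF1-MET, and 2 higher and 1 lower in NF1-MET;sgP53. Of all genes tested, 35.5% and 34.2% were higher and 34.7% and 33.4% lower in the 2 lines. The part of these changes in the results was not tested.

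Capmatinib lowered most PRC2 transcripts and raised *Ezh1* and *Jarid2*. In NF1-MET cells 7 of the 10 members fell, 2 rose and *Eed* was not called, against a background in which 34.7% of all genes tested fell and 35.5% rose (70.2% in all). In NF1-MET;sgP53 cells 8 fell and 2 rose, against 33.4% and 34.2% of all genes tested (67.6% in all). A gene was called at an adjusted p under 0.05 in edgeR's quasi-likelihood test over all genes. The members' median log2 fold change was -0.31 in each line, whereas that of all genes was 0.0020 and 0.0049. With about as many genes rising as falling, the changes are relative to the scaling. Under scaling to library totals the median of all genes itself moved to -0.18 and -0.12, and 3508 genes rose and 6381 fell in NF1-MET (5140 and 5029 by TMM) and 3260 rose and 4933 fell in NF1-MET;sgP53 (4963 and 4841). Of the members, 8 then fell and 1 rose in NF1-MET, and 8 fell and 2 rose in NF1-MET;sgP53. In bulk RNA, fewer cells with a transcript and less of it in each cell cannot be told apart.

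**Figure D1:**
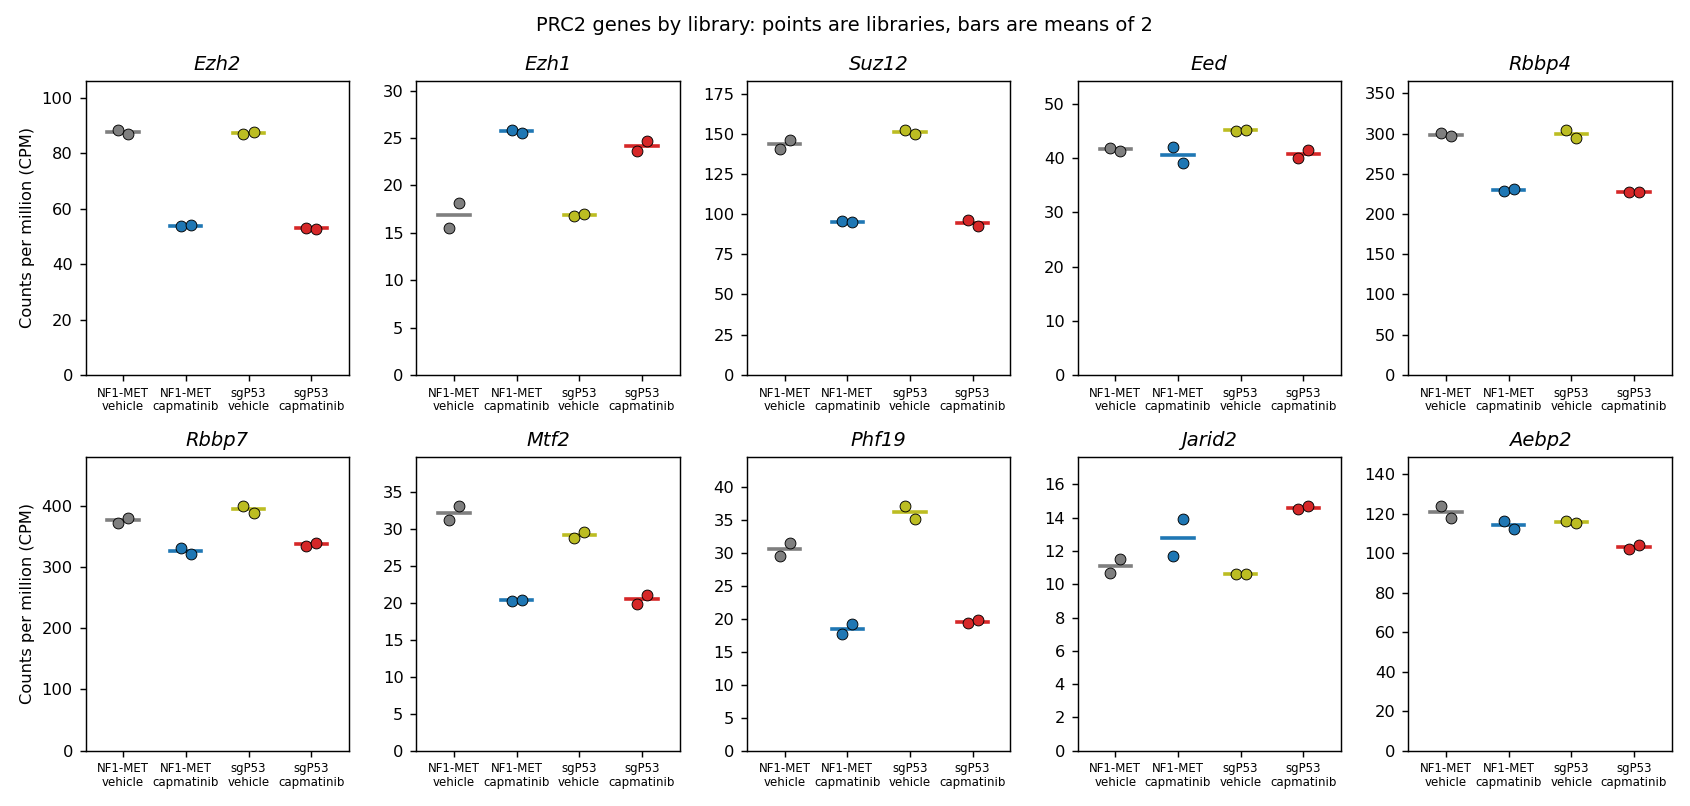
Level of each PRC2 gene in the 8 libraries, in CPM after TMM scaling, with 1 panel per gene and an axis from 0. Points are libraries and bars are the means of 2, for NF1-MET and NF1-MET;sgP53 (sgP53) under vehicle or capmatinib. *Ezh2*, *Suz12*, *Rbbp4*, *Rbbp7*, *Mtf2* and *Phf19* are lower and *Ezh1* and *Jarid2* are higher in all 4 capmatinib libraries than in any vehicle library, whereas *Eed* and *Aebp2* overlap.

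The catalytic subunits moved in opposite directions. *Ezh2* (chr6:47530139-47595341, the major methyltransferase of dividing cells) was at 88.4 and 87.0 CPM in NF1-MET under vehicle and at 53.7 and 54.2 CPM under capmatinib. In NF1-MET;sgP53 cells its level was 86.9 and 87.6 CPM under vehicle and 53.2 and 52.7 CPM under capmatinib. The 4 vehicle libraries lay close together, as did the 4 capmatinib libraries, and the treatments did not overlap. Its log2 fold change was -0.72 ± 0.035 (SE, n = 2 against 2) in NF1-MET, with an adjusted p of 2.64e-18 from edgeR's quasi-likelihood test, and -0.72 ± 0.033 in NF1-MET;sgP53, with an adjusted p of 1.35e-14 from the same test. That is a level 0.608 and 0.607 times the vehicle level, and 10.9% of all genes had a log2 fold change at or below it in each line.

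*Ezh1* (chr11:101191115-101226463, the paralog with weaker methyltransferase activity) was at 15.5 and 18.1 CPM in NF1-MET under vehicle and at 25.8 and 25.5 CPM under capmatinib. In NF1-MET;sgP53 the values were 16.8 and 17.02 CPM under vehicle and 23.7 and 24.7 CPM under capmatinib. All 4 capmatinib libraries lay above all 4 vehicle libraries. The rise was 1.5-fold in NF1-MET (log2 0.59 ± 0.067, edgeR adjusted p = 2.39e-09) and 1.43-fold in NF1-MET;sgP53 (log2 0.52 ± 0.063, edgeR adjusted p = 2.04e-07).

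The 2 other core subunits differed from each other. *Suz12* (chr11:79993106-80034123, the scaffold that carries both the catalytic and the accessory modules) was at 141 and 146 CPM in NF1-MET under vehicle and at 95.7 and 94.9 CPM under capmatinib. In NF1-MET;sgP53 cells its level was 152 and 149.9 CPM under vehicle and 96.2 and 92.7 CPM under capmatinib. The treatments did not overlap, and the log2 fold change was -0.61 ± 0.030 in NF1-MET cells (edgeR adjusted p = 3.64e-18) and -0.68 ± 0.035 in NF1-MET;sgP53 (edgeR adjusted p = 1.07e-13).

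*Eed* (chr7:89954654-89980983, the subunit that reads trimethylated H3K27) hardly moved. It was at 42.0 and 41.3 CPM in NF1-MET under vehicle and at 42.1 and 39.2 CPM under capmatinib, and these groups overlapped. Its log2 fold change there was -0.057, with a 95% interval of -0.15 to 0.038 and an edgeR adjusted p of 0.278. In NF1-MET;sgP53 *Eed* was at 45.1 and 45.2 CPM under vehicle and at 40.1 and 41.6 CPM under capmatinib, a fall of -0.15 ± 0.043 on the log2 scale (edgeR adjusted p = 0.00466). The DESeq2 Wald test did not call that fall (adjusted p = 0.0511), and scaling to library totals called one in NF1-MET (-0.24). With both lines considered, the interval for *Eed* leaves out a fall as large as that of *Suz12*.

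The histone-binding subunits, which PRC2 shares with other chromatin complexes, fell by less. *Rbbp4* (chr4:129307100-129335370) was at 300.2 and 296 CPM in NF1-MET under vehicle and at 229 and 231.5 CPM under capmatinib, and at 304 and 294 CPM against 228 and 227 CPM in NF1-MET;sgP53. *Rbbp7* (chrX:162760402-162779092) was at 373 and 380.0 CPM against 332 and 321 CPM in NF1-MET, and at 401 and 389 CPM against 334.5 and 340.4 CPM in NF1-MET;sgP53. For neither gene did vehicle and capmatinib libraries of a line overlap. The log2 fold change of *Rbbp4* was -0.39 ± 0.024 in NF1-MET cells and -0.40 ± 0.031 in NF1-MET;sgP53 (edgeR adjusted p = 1.09e-15 and 1.13e-10). For *Rbbp7* the values were -0.22 ± 0.024 and -0.23 ± 0.029 (edgeR adjusted p = 7.81e-10 and 4.28e-07). Exons of *Rbbp4* overlap *Sync* and *Gm26722* on the opposite strand over 8.94% and 9.1% of their length, and both of those genes rose (log2 2.14 and 2.13 in NF1-MET). *Rbbp7* overlaps *Txlng* over 5.98%. A near-identical pseudogene of *Rbbp7*, *Gm6382*, held 65 counts over the 8 libraries. Whether counting used strand is not stated in the sources used here, so reads in those stretches may be split or left out.

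Both PRC2.1 members, *Mtf2* and *Phf19*, fell in each line. *Mtf2* (chr5:108065674-108109004, which guides PRC2 to unmethylated CpG islands) was at 31.2 and 33.1 CPM in NF1-MET under vehicle and at 20.2 and 20.4 CPM under capmatinib. In NF1-MET;sgP53 cells its level was 28.7 and 29.6 CPM under vehicle and 19.9 and 21.0 CPM under capmatinib. Each line's treatments were apart, with log2 fold changes of -0.68 ± 0.057 and -0.51 ± 0.058 (edgeR adjusted p = 2.75e-12 and 6.05e-08). *Mtf2* overlaps *Tmed5* on the opposite strand over 6.93% of its exons, and *Tmed5* itself changed by -0.18 and -0.12.

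*Phf19* (chr2:34893757-34914026, a reader of methylated lysine 36 of histone H3) was at 29.6 and 31.6 CPM in NF1-MET under vehicle and at 17.8 and 19.3 CPM under capmatinib. In NF1-MET;sgP53 cells its level was 37.2 and 35.2 CPM under vehicle and 19.4 and 19.8 CPM under capmatinib. No capmatinib library reached the lowest vehicle library. The log2 fold change was -0.73 ± 0.060 in NF1-MET cells and -0.88 ± 0.055 in NF1-MET;sgP53 (edgeR adjusted p = 1.63e-12 and 3.22e-12), the lowest value among the 10 members in both lines. *Phf19*, *Ezh2* and *Suz12*, the 3 members with the E2F motif shown above, were among the 4 members with the lowest log2 fold changes in NF1-MET and were the 3 lowest in NF1-MET;sgP53. *Mtf2*, with no E2F motif in its windows, was the other of the 4. *Rbbp4*, *Rbbp7* and *Aebp2*, which fell in both lines, held no such motif either. The motifs were chosen with earlier results of these data known, and a link between motif and fall was not tested.

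Of the PRC2.2 subunits, *Jarid2* rose and *Aebp2* fell slightly. *Jarid2* (chr13:44729474-44921643, a catalytically inactive Jumonji protein that helps recruit PRC2) was at 10.7 and 11.5 CPM in NF1-MET under vehicle and at 11.7 and 13.9 CPM under capmatinib, so that the nearest libraries of the 2 treatments almost touched. Its log2 fold change of 0.20 ± 0.086 was called (edgeR adjusted p = 0.0346), but the call was lost with the DESeq2 Wald test (adjusted p = 0.209) and with library totals (log2 0.013). It was also lost without NF1-MET vehicle replicate 1 (log2 0.15) or capmatinib replicate 2 (log2 0.062). In NF1-MET;sgP53 *Jarid2* was at 10.6 and 10.6 CPM under vehicle and at 14.5 and 14.7 CPM under capmatinib, a rise of 0.46 ± 0.077 on the log2 scale (edgeR adjusted p = 1.65e-05).

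*Aebp2* (chr6:140622663-140678472, a zinc finger protein of PRC2.2) was at 124 and 118 CPM in NF1-MET under vehicle and at 116 and 112 CPM under capmatinib. In NF1-MET;sgP53 cells its level was 116 and 115 CPM under vehicle and 102 and 104 CPM under capmatinib. The groups did not overlap, but the falls were small, with log2 values of -0.10 ± 0.031 and -0.16 ± 0.035 (edgeR adjusted p = 0.00485 and 0.000283). The call in NF1-MET was lost without vehicle replicate 1 (-0.061) or capmatinib replicate 2 (-0.072).

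**Figure D2:**
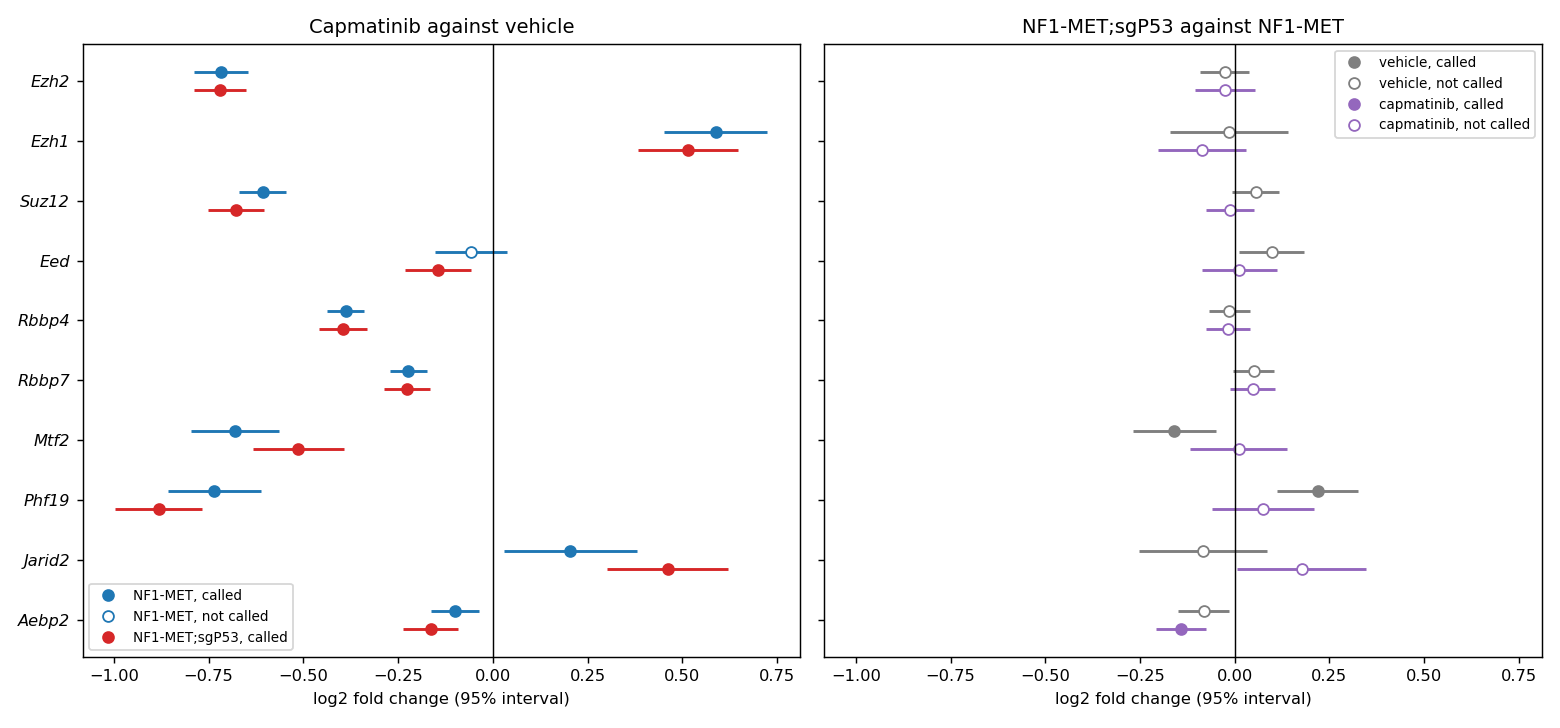
Log2 fold change of each PRC2 gene with its 95% interval from edgeR, for capmatinib against vehicle in each line (left) and for NF1-MET;sgP53 against NF1-MET under each treatment (right). Filled points are called (adjusted p under 0.05) and open points are not. The capmatinib changes run from -0.88 to 0.59, whereas the differences between lines lie between -0.16 and 0.22.

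Between the lines 2 of the 10 PRC2 genes differed with vehicle and 1 with capmatinib, a share near that of all genes in each case. With vehicle, *Phf19* was higher and *Mtf2* lower in NF1-MET;sgP53 than in NF1-MET, and 8 members were not called, where 10.9% of all genes tested were higher and 12.3% lower (23.2% in all). *Phf19* was at 37.2 and 35.2 CPM against 29.6 and 31.6 CPM (log2 0.22 ± 0.051, edgeR adjusted p = 0.00346), a call that was lost without NF1-MET vehicle replicate 1 (log2 0.17, edgeR adjusted p = 0.0505). *Mtf2* was at 28.7 and 29.6 CPM against 31.2 and 33.1 CPM (log2 -0.16 ± 0.052, edgeR adjusted p = 0.0312). That call was lost with the DESeq2 Wald test, with library totals, in a model of all 8 libraries, and without NF1-MET vehicle replicate 2 (-0.11) or NF1-MET;sgP53 vehicle replicate 1 (-0.14). Without NF1-MET vehicle replicate 2 *Aebp2* was called lower instead (log2 -0.12, edgeR adjusted p = 0.0409). For *Ezh2* the interval of the difference was -0.092 to 0.039, for *Suz12* -0.0069 to 0.12 and for *Eed* 0.011 to 0.18 on the log2 scale, with edgeR adjusted p of 0.602, 0.204 and 0.100.

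With capmatinib, *Aebp2* was lower in NF1-MET;sgP53 (102 and 104 CPM against 116 and 112 CPM, log2 -0.14 ± 0.031, edgeR adjusted p = 0.00474) and the other 9 members were not called, against 6.34% of all genes lower and 5.94% higher (12.3% in all). The *Aebp2* difference was not called under library totals (-0.027). By edgeR no member was higher at the adjusted threshold and 1 member, *Jarid2*, was higher without adjustment (log2 0.18, edgeR adjusted p = 0.192). Without NF1-MET capmatinib replicate 2 *Jarid2* was called (log2 0.32). By the DESeq2 Wald test 0 members were higher as well.

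The response to capmatinib was compared between the lines with an interaction term over the 8 libraries. By edgeR 0 of the 10 members were called in either direction, where 3.85% of all genes tested had a higher and 5.86% a lower response in NF1-MET;sgP53 (9.71% in all). Without adjustment 1 member, *Jarid2*, was under 0.05 (0.24 ± 0.12 on the log2 scale, edgeR adjusted p = 0.226), and by the DESeq2 Wald test there were 0 at the adjusted threshold. The 95% intervals were -0.11 to 0.072 for *Ezh2*, -0.29 to 0.11 for *Ezh1*, -0.18 to 0.0057 for *Suz12*, -0.34 to 0.0100 for *Phf19* and -0.015 to 0.32 for *Mtf2*. A difference of the size of the capmatinib effect on *Ezh2*, *Suz12* or *Ezh1* lies outside these intervals.

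Per kilobase of annotated exon (GENCODE M21), the transcripts spanned about 2 orders of magnitude. In NF1-MET under vehicle *Rbbp7* was highest at 130 CPM per kb, followed by *Rbbp4* at 34.1 and *Suz12* at 29.0. *Ezh2* (13.1), *Aebp2* (12.3) and *Eed* (10.9 CPM per kb) formed a middle group. *Phf19* (6.08), *Mtf2* (5.64), *Ezh1* (2.26) and *Jarid2* (1.14 CPM per kb) were the lowest. With capmatinib *Ezh2* dropped below *Aebp2* and *Eed* in both lines, to 8.08 CPM per kb in NF1-MET cells and 7.93 in NF1-MET;sgP53. Neighbours whose libraries overlapped were *Phf19* and *Mtf2* in NF1-MET under capmatinib, and *Eed* and *Aebp2* in both groups of NF1-MET;sgP53. With the longest transcript as the length, all 10 ranks were the same in each vehicle group, but only 5 of 10 in each capmatinib group. *Ezh2* under capmatinib was then above *Aebp2* (19.4 against 19.2 CPM per kb in NF1-MET, 19.0 against 17.4 in NF1-MET;sgP53) and stayed below *Eed* (19.7 and 19.8), and *Ezh1* was above *Phf19* and *Mtf2*.

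**Figure D3:**
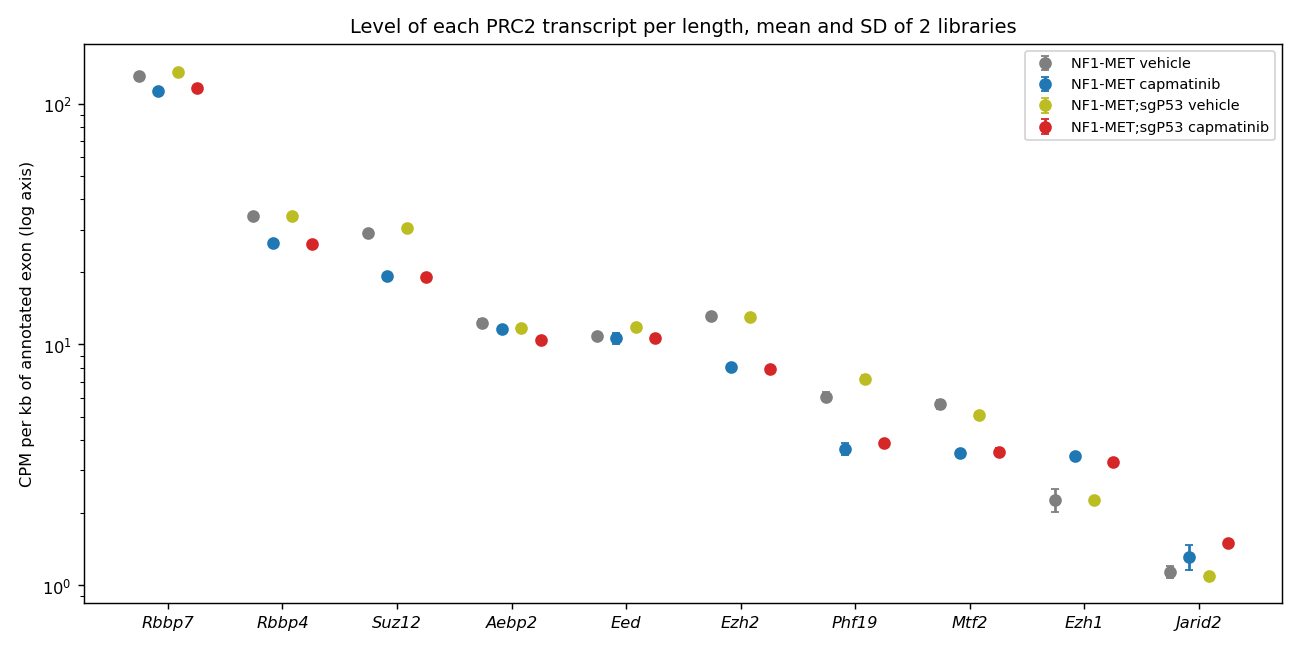
Level of each PRC2 transcript in CPM per kb of annotated exon (log axis), as the mean and SD of 2 libraries per group. *Rbbp7* is at 112 to 136 CPM per kb and *Jarid2* at 1.09 to 1.5, and *Ezh1* approaches *Mtf2* in the capmatinib groups (3.45 against 3.56 CPM per kb in NF1-MET).

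The ratios between alternative subunits shifted under capmatinib in both lines. The ratio of *Ezh1* to *Ezh2* per kb was 0.172 ± 0.021 (SD, n = 2) in NF1-MET under vehicle and 0.427 ± 0.0062 under capmatinib. In NF1-MET;sgP53 it was 0.174 ± 0.00069 under vehicle and 0.410 ± 0.015 under capmatinib. *Ezh2* stayed the more abundant of the pair in every library, and with 2 libraries per group the ratios are given without a test. Among the members, *Mtf2* and *Phf19* (PRC2.1) summed stood to *Jarid2* and *Aebp2* (PRC2.2) as 0.875 ± 0.064 under vehicle and 0.562 ± 0.025 under capmatinib in NF1-MET, and as 0.958 ± 0.0096 and 0.624 ± 0.0086 in NF1-MET;sgP53. *Phf1*, a PRC2.1 gene outside the 10 that rose, narrowed the shift when added to the first sum, to 1.1 against 0.903 in NF1-MET and 1.17 against 0.961 in NF1-MET;sgP53. With *Epop*, which fell, added as well, the ratios were 1.71 against 1.22 and 1.8 against 1.32. *Suz12* to *Eed* went from 2.67 ± 0.10 to 1.82 ± 0.079 in NF1-MET and from 2.59 ± 0.034 to 1.79 ± 0.091 in NF1-MET;sgP53. In contrast, the catalytic sum of *Ezh1* and *Ezh2* relative to *Suz12* moved less, from 0.531 ± 0.011 to 0.598 ± 0.0048 and from 0.502 ± 0.0088 to 0.586 ± 0.017. These ratios depend on the length used. With the longest transcript as length *Suz12* to *Eed* went from 1.63 to 1.11 for NF1-MET and from 1.58 to 1.09 for NF1-MET;sgP53. The catalytic sum to *Suz12* went from 1.08 to 1.17 and from 1.02 to 1.15, so the directions were as before.

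**Figure D4:**
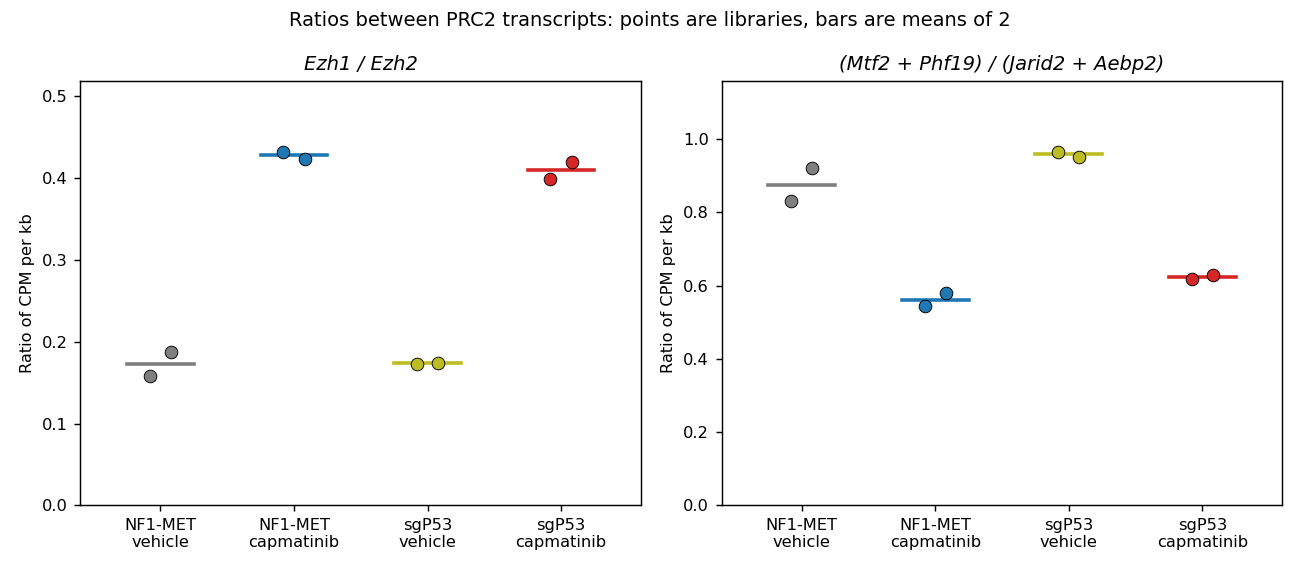
Ratios between PRC2 transcripts in each library, computed from CPM per kb of annotated exon, with bars at the means of 2. *Ezh1* to *Ezh2* lies between 0.410 and 0.427 on average under capmatinib against 0.172 and 0.174 under vehicle, while *Mtf2* plus *Phf19* to *Jarid2* plus *Aebp2* (right) is lower under capmatinib in both lines.

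Proliferation genes fell with the PRC2 genes. All 18 genes of a proliferation list, such as *Mki67*, *Pcna* and the *Mcm* helicase subunits, fell under capmatinib in both lines, with log2 fold changes of -1.22 to -0.63 in NF1-MET (median -0.86) and -1.29 to -0.58 in NF1-MET;sgP53 (median -0.88). Their summed level was 3942 to 4004 CPM in NF1-MET under vehicle and 2300 to 2324 CPM under capmatinib, and 4100 to 4158 against 2301 to 2324 CPM in NF1-MET;sgP53. Of 11 RB and E2F family genes, 8 fell and 2 rose in NF1-MET and 9 fell and 2 rose in NF1-MET;sgP53. For both lists, 34.7% and 33.4% of all genes tested fell and 35.5% and 34.2% rose in the 2 lines. The E2F factors *E2f8* (-2.11 and -2.06) and *E2f2* (-1.99 and -2.16) fell most, and the retinoblastoma gene *Rb1* rose (0.58 and 0.80). The part of these changes in the PRC2 result was not tested. With vehicle 6 of the 18 proliferation genes were higher in NF1-MET;sgP53, by at most 0.13 on the log2 scale, and 0 lower, against 10.9% and 12.3% of all genes. With capmatinib 2 were higher and 4 lower (5.94% and 6.34% of all genes), and by the interaction term 6 of the 18 had a lower and 0 a higher response in NF1-MET;sgP53 (5.86% and 3.85% of all genes), the lowest value being -0.24.

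The remaining PRC2 accessory genes were mixed. Of 4 measured, *Epop* (an elongin-binding subunit of PRC2.1) fell by 1.04 in NF1-MET and by 0.92 in NF1-MET;sgP53 on the log2 scale, *Lcorl* fell (-0.39 and -0.32), and *Phf1*, the PRC2.1 paralog of *Mtf2* and *Phf19*, rose (0.49 and 0.59). *Lcor* was not called in either line (0.038 and -0.095). The list's median was -0.18 and -0.21, beside 0.0020 and 0.0049 over all genes.

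PRC1, the complex that binds the PRC2 mark and ubiquitylates histone H2A, had genes called in both directions at shares near those of all genes (35.5% and 34.2% rose and 34.7% and 33.4% fell). Of 24 subunit genes 9 rose and 10 fell in NF1-MET (median -0.057), and 8 rose and 8 fell in NF1-MET;sgP53 (median 0.070). The chromodomain reader *Cbx8* (1.07 and 0.90) rose, whereas *L3mbtl2* of a variant PRC1 fell (-0.75 and -0.88). *Pcgf6* fell in both lines (-0.37 and -0.73) and more in NF1-MET;sgP53 (interaction -0.38, edgeR adjusted p = 0.0310). *Pcgf3* fell in both (-0.26 and -0.10) and less in NF1-MET;sgP53 (interaction 0.14, edgeR adjusted p = 0.0299). By that term 1 of the 24 genes was higher and 1 lower, where 3.85% and 5.86% of all genes were. The BAP1 complex, which removes H2A ubiquitin, had 3 of 8 genes higher and 5 lower in each line, with *Asxl3* lowest (-1.06 and -0.81).

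Among 4 enzymes that oppose PRC2 on H3K27, the demethylases responded differently in the 2 lines. *Kdm6a*, an H3K27 demethylase, fell (-0.34 and -0.12). *Kdm6b*, another, was not called in NF1-MET (0.055) and rose in NF1-MET;sgP53 (0.38), a difference called by the interaction term (0.31, edgeR adjusted p = 0.000678), as it was for *Kdm6a* (0.21, edgeR adjusted p = 0.0447). By that term 2 of the 4 genes had a higher and 0 a lower response, where 3.85% and 5.86% of all genes did. *Crebbp*, an acetyltransferase, rose in both lines (0.098 and 0.18). With vehicle *Kdm6b* (-0.33), *Kdm6a* (-0.21) and the acetyltransferase *Ep300* (-0.13) were lower in NF1-MET;sgP53, 3 of the 4 genes of that list, where 12.3% of all genes were lower. Among 5 methyltransferases of histone H3 lysine 36, a mark that hinders PRC2, *Nsd2* fell (-0.95 and -1.03) while *Ash1l* (0.25 and 0.21) and *Setd2* (0.16 and 0.17) rose. *Nsd3* (0.076 and 0.072) was called higher in NF1-MET. In that line 3 of the 5 rose and 1 fell, and in NF1-MET;sgP53 2 rose and 1 fell. Of all genes tested, 35.5% and 34.2% rose and 34.7% and 33.4% fell.

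Complexes that share *Rbbp4* and *Rbbp7* with PRC2 (NuRD, SIN3 and CAF-1) mostly fell. Of their 17 genes other than the members, 13 fell and 3 rose in NF1-MET (median -0.27), and 12 fell and 4 rose in NF1-MET;sgP53 (median -0.25), where 34.7% and 33.4% of all genes fell and 35.5% and 34.2% rose. The lowest values belonged to the histone chaperone subunits *Chaf1a* (-0.94 and -0.97) and *Chaf1b* (-0.91 and -1.13) and to *Sap30* of the SIN3 complex (-1.04 and -0.86), whereas *Chd3* rose (0.51 and 0.62). SWI/SNF, a remodeller that counteracts Polycomb, had 4 of 15 genes higher and 7 lower in NF1-MET and 4 higher and 6 lower in NF1-MET;sgP53, against the same shares of all genes, with *Smarcd3* higher (1.14 and 1.19) and *Actl6a* lower (-0.81 and -0.95). The members of PRC2, with medians of -0.31, thus lay between the NuRD, SIN3 and CAF-1 list and the RB and E2F list (median -0.50 and -0.60), and no test of the difference between lists was made.

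**Figure D5:**
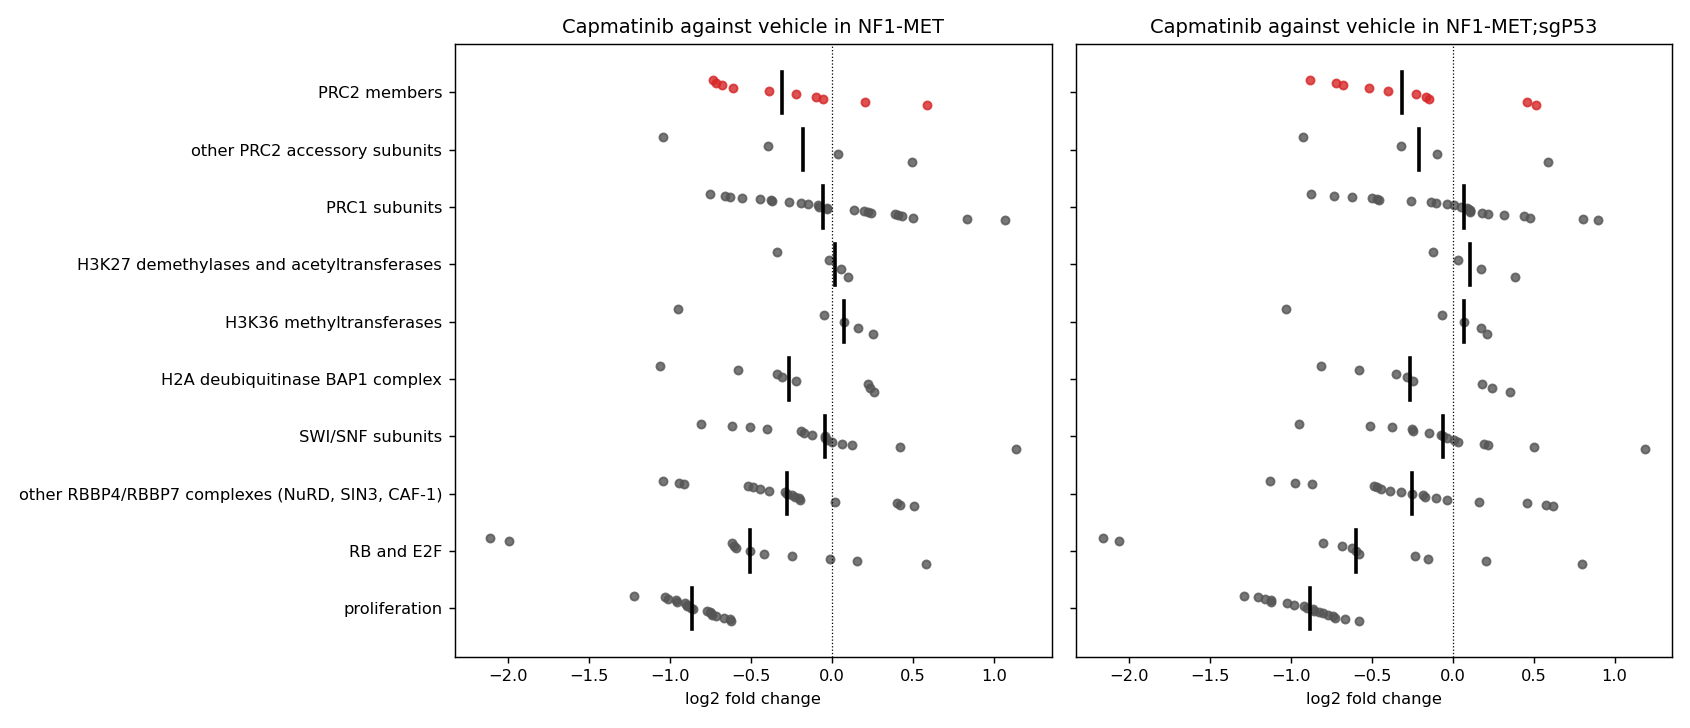
Log2 fold change of capmatinib against vehicle for the PRC2 members (red) and for each gene of the related lists (grey), in NF1-MET (left) and NF1-MET;sgP53 (right), with the median of each list as a black bar. The PRC2 medians are -0.31 in both lines, those of proliferation genes -0.86 and -0.88, and those of PRC1 subunits -0.057 and 0.070.

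Of 26 developmental regulators that usually carry the PRC2 mark, 16 had 0 counts in all 8 libraries and 5 passed the filter, where 49.9% of all genes listed had 0 counts and 28.7% passed. A count of 0 allows up to about 3 counts at the 95% level, by counting error only, or 0.0702 to 0.108 CPM per library. *Nkx2-2* was at 7.49 and 8.60 CPM in NF1-MET under vehicle and at 19.3 and 18.2 CPM under capmatinib, and at 8.44 and 9.39 CPM against 19.6 and 19.4 CPM in NF1-MET;sgP53 (log2 1.19 and 1.13). *Pax3* was at 18.0 and 18.3 CPM against 33.2 and 32.4 CPM in NF1-MET and rose in both lines (0.84 and 0.93). *Pax6* rose (0.67) and *Gata6* fell (-0.24) in NF1-MET cells, and neither was called in NF1-MET;sgP53 (0.53 and -0.19). The interaction term called neither *Pax6* (-0.16, edgeR adjusted p = 0.851) nor *Gata6* (0.038, edgeR adjusted p = 0.908). *Pax6* held 33 to 79 counts per library. *Lhx2* was not called in either line. Between the lines, edgeR's adjusted p for the 5 genes lay between 0.194 and 0.929 under vehicle and between 0.0920 and 0.578 under capmatinib. The mark itself was not measured in these libraries.

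Across the 8 libraries the members formed groups that follow the treatment. In log2 CPM *Ezh2* had Pearson's r of 0.997 with *Rbbp4*, 0.993 with *Suz12* and 0.979 with *Mtf2*, but 0.659 with *Eed* and -0.974 with *Ezh1*. These points share 2 treatments and 2 lines, so r mostly records the treatment difference and no p is given. Of the 8649 genes that averaged 10 CPM or more, 7.85% had r of at least 0.99 with *Ezh2*, and the 5 with the highest were *E2f8* (0.9996), *Mapk6*, *Pimreg*, *Timp1* and *Rasa1*. *E2f8* is a repressor E2F factor of the S phase and *Pimreg* a gene of mitosis. *Pimreg*, *Mapk6*, *Timp1* and *Rasa1* are on neither the proliferation list nor the RB and E2F list. With 679 genes at r of at least 0.99, these 5 are a small part of that set. For *Ezh1* 0.116% reached r of 0.99, and the 5 highest were *Snhg12* (0.9961), *Inpp5k*, *Sike1*, *Asb7* and *Ccni*. *Ezh1* was measured with 564 to 981 counts per library, against 1486 to 3741 for *Ezh2*. The NF1-MET vehicle replicates of *Ezh1* were at 15.5 and 18.1 CPM, and spread between replicates limits the r that can be reached.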

How the data were processed

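The authors sequenced poly(A) RNA of the 2 lines from both ends, with 2 libraries in each of the 4 groups. Their processing notes name bcl2fastq 1.9.0, Trim Galore 0.4.2, FastQC 0.11.7, STAR 2.5.2b and mm10. The deposited values are raw counts per gene, neither normalized nor filtered. The annotation and the strand setting are not given in the sources used here.

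The filter kept 14497 of 50600 genes, those with 10 or more counts in 2 or more libraries, and a gene was tested where 2 libraries of the comparison had a count. TMM factors, dispersions and edgeR's quasi-likelihood F-test (R 4.3.3, edgeR 4.0.16, limma 3.58.1) were computed within each comparison's libraries, and p-values were adjusted by Benjamini and Hochberg's method across every gene tested, with calls at 0.05. Standard errors come from the fold change and the F statistic. Alternatives used DESeq2 1.42.0, other scalings, filters and models, a replicate block, and leaving out each library. The procedure was tested on counts simulated from the dispersion trend of each fit, which does not measure its error rates in the real duplicates.

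Positions and exon lengths came from GENCODE M21, in which 50376 identifiers were found, promoter windows from RefSeq (GRCm38.p6), and similar transcripts from BLAST 2.17.0 (at least 90% identity over 200 bases). The members, gene lists and motifs were chosen with earlier results of these data known, so counts over them are descriptions. Named genes are the 10 members, up to 4 called genes with the largest change per list and comparison (averaging 1 CPM or more where higher), *Trp53*, and the 5 genes most like *Ezh2* and *Ezh1* in log2 CPM (prior count 2). *Mki67*, *Pcna*, *Rb1*, *Sox10*, *Ngfr*, *Cdh19*, *Col1a1*, *Pdgfra*, *Lum*, *Lcor*, *Lhx2*, *Ep300*, *Sync*, *Gm26722*, *Txlng*, *Tmed5*, *Gm6382* and *Gm42418*, and second values of a gene that the rule names for the other line, were added after their values were seen. Replicates of a group were not identical and differed by more than counting error. Library totals of 30.1 to 42.8 M (median 36.5 M) limit the precision of the lowest members, *Jarid2* with 324 to 534 counts per library.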

Additional observations from a re-analysis of the deposited data

How the results depend on the processing

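For capmatinib in NF1-MET;sgP53 the number of members called in each direction was the same or within 1.5 times under every alternative, and *Ezh2*, *Ezh1*, *Suz12*, *Rbbp4*, *Rbbp7*, *Mtf2* and *Phf19* kept their direction and call in both lines. In NF1-MET the members called higher went from 2 to 1 with library totals and with the DESeq2 Wald test, and to between 1 and 2 when a library was left out. For NF1-MET;sgP53 against NF1-MET with vehicle, the members called lower went from 1 to 0 with library totals, the DESeq2 Wald test and a model of all 8 libraries, and to 2 with a replicate block, where *Aebp2* joined (-0.081). Leaving out a library gave 0 to 1 higher and 0 to 1 lower, the lower call being *Aebp2* in place of *Mtf2* without NF1-MET vehicle replicate 2. With capmatinib the lower call went to 0 with library totals, and leaving out a library gave 0 to 1 higher. The causes were not tested. The replicate number was not used for pairing, since differences between replicates correlated between groups by only -0.054 to 0.10 over 14497 genes, and the block changed no other member call. Differences between lines near 0 changed sign in uncalled members. With library totals these were *Ezh2* 0.030, *Ezh1* 0.041 and *Rbbp4* 0.042 with vehicle, *Ezh2* 0.089, *Ezh1* 0.029, *Suz12* 0.10 and *Rbbp4* 0.097 with capmatinib, and *Ezh2* 0.059, *Rbbp4* 0.055 and *Rbbp7* 0.058 in the interaction. With all 8 libraries in 1 model they were *Ezh1* 0.0031 and *Rbbp4* 0.0047 with vehicle. In the interaction *Ezh2*, *Rbbp4* and *Rbbp7* were at 0.015, 0.012 and 0.014 without *Gm42418* and at 0.0053, 0.0018 and 0.0041 with no filter. Leaving out a library gave *Ezh1* -0.12 to 0.10 and *Rbbp4* -0.037 to 0.0082 with vehicle, *Suz12* -0.039 to 0.013, *Eed* -0.044 to 0.061 and *Mtf2* -0.032 to 0.051 with capmatinib, and in the interaction *Ezh2* -0.032 to 0.021, *Ezh1* -0.21 to 0.013, *Rbbp4* -0.048 to 0.013 and *Rbbp7* -0.046 to 0.0030. With the longest transcript as length the *Ezh1* to *Ezh2* ratio was 0.127 and 0.315 in NF1-MET with vehicle and capmatinib, and 0.128 and 0.302 in NF1-MET;sgP53. The PRC2.1 to PRC2.2 ratio was then 0.743 and 0.48, and 0.812 and 0.537. This length for ratios other than *Ezh1* to *Ezh2*, and the sums with *Phf1* and *Epop*, were added after seeing the data. Over all genes, library totals gave 1280 higher and 743 lower for the lines with vehicle (1580 and 1775 by TMM), 537 and 129 with capmatinib (860 and 918), and 192 and 123 in the interaction (558 and 849). The DESeq2 Wald test gave 833 and 1100, 436 and 434, and 433 and 461 for these 3, and no filter 515 and 555 with capmatinib. Without *Gm42418* the interaction gave 873 and 612, with no filter 746 and 628, and with single libraries left out 377 to 713 and 509 to 738.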
